A study of Mus musculus with 9 samples.

Results

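RNA recovered with the RNA sensor RIG-I from mouse melanoma cells carrying the OSGEP shRNA shOSGEP#1 was compared with RNA recovered from cells carrying the control shRNA shCtr. The comparison takes 6 of the 9 libraries of the series, all 3 of shOSGEP#1 and all 3 of shCtr, and the 3 libraries of shOSGEP#2 are not in it. The study asks what happens to melanoma cells, and to the RNA that RIG-I holds, when OSGEP is depleted. All cells were B16F10, an established line from a mouse melanoma, and all stably expressed FLAG-tagged RIG-I from a lentiviral construct. shCtr cells are labelled WT and shOSGEP#1 cells KD OSGEP. Both hairpins were delivered by lentivirus and selected with puromycin, and the replicates of each group are independent experiments. RNA that came down with an antibody against FLAG was depleted of ribosomal RNA and sequenced in pairs of reads, and the authors deposited counts per gene. The count of a gene reflects how much of the RNA that came down with RIG-I is its own. RNA of the whole lysate was not used here, so a change in the amount of an mRNA in the cell and a change in how much of it was recovered with RIG-I cannot be told apart. The same holds for fewer cells with an mRNA and less of it per cell.

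OSGEP is the catalytic subunit of KEOPS, the complex that places threonylcarbamoyl groups on the adenosine next to the anticodon of tRNAs that read codons starting with A. The modification helps these tRNAs to decode in the cytoplasm. RIG-I is a cytoplasmic sensor that binds RNA with features of viral RNA, signals through MAVS and switches on interferon and its target genes.

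In shCtr, replicate 1 totalled 40333037 counts, replicate 2 totalled 47750758 and replicate 3 totalled 41805753. In shOSGEP#1 the totals were 34551436 for replicate 1, 50224299 for replicate 2 and 30697653 for replicate 3. The difference in mean log2 total was −0.20, with 2 of 3 shOSGEP#1 libraries below all shCtr libraries (two-sided exact permutation p = 0.500, adjusted p = 0.667 over 4 library measures). Counts were found for 13958, 13632 and 13523 genes in shCtr and for 13458, 13708 and 13103 genes in shOSGEP#1 (two-sided exact permutation p = 0.400, adjusted p = 0.667). With 3 counts as the floor, the least that a library could show lay between 0.0597 and 0.0977 CPM (the count scaled by the library's total counts), which covers counting error only. Across genes, which are not independent replicates, the rank correlation was 0.984 to 0.994 among the shCtr libraries, 0.973 to 0.992 among the shOSGEP#1 libraries and 0.929 to 0.967 between the groups.

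The library of shOSGEP#1 replicate 3 stood apart in its mitochondrial RNA. The 13 mitochondrially encoded genes took 2.96% of its counts (95% Wilson interval 2.95% to 2.97%), against 0.347% in replicate 1 and 0.445% in replicate 2 of shOSGEP#1. The shCtr libraries had 0.223%, 0.147% and 0.303%. Each shOSGEP#1 library was higher than each shCtr library, and replicate 3 was far above the other two. The difference in mean log2 share was 1.84 (exact permutation test, two-sided, p = 0.10, below which 6 libraries cannot go, adjusted p = 0.400). The part of this share in the changes of other genes was not tested, and some results are also given without that library.

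Markers of the cell line were present in every library. The 8 melanocyte markers summed to 8880, 8065 and 10702 CPM in shCtr and to 10458, 13562 and 12386 CPM in shOSGEP#1. Sox10, a transcription factor of the neural crest and of melanocytes, had 884, 824 and 890 CPM in shCtr and 875, 862 and 972 CPM in shOSGEP#1. Sums for T cells were at most 1.11 CPM, with Cd3e, Cd3d and Cd8a at 0 in all 6 libraries. Those for macrophages and other leukocytes were at most 5.01 CPM, and Itgam and Tyrobp had no count. Fibroblast markers summed to at most 7.39 CPM, led by Col1a2, and keratinocyte markers to at most 0.195 CPM. Endothelial markers summed to 9.50, 10.4 and 13.7 CPM in shCtr and to 4.92, 2.11 and 5.44 CPM in shOSGEP#1. Most of this was Vwf, which fell (log2 fold change −1.88, standard error 0.294, edgeR adjusted p = 0.00206), while Cdh5, Kdr, Tek and Pecam1 stayed under 2 CPM. The list of neurons and glia summed to 954 to 1497 CPM in shCtr and 705 to 883 CPM in shOSGEP#1, mostly from Mbp, and its neuronal members Rbfox3, Snap25 and Syt1 had at most 0.191 CPM. Vwf missed the threshold without shCtr replicate 1 or 2 (edgeR adjusted p = 0.0108 and 0.0105).

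Osgep, the target of the hairpin, fell in all 3 shOSGEP#1 libraries. Its CPM was 19.1, 19.9 and 15.5 in shCtr and 3.76, 1.15 and 1.53 in shOSGEP#1, an 8.64-fold reduction (log2 fold change −3.11, standard error 0.399, edgeR adjusted p = 0.000973 over 12274 genes tested). Replicate 1 of shOSGEP#1 held more Osgep than the other two, and the groups did not overlap. The call stood in each of the 6 fits with 1 library left out, with an edgeR adjusted p of at most 0.00764, and the log2 fold change moved most without shOSGEP#1 replicate 1, to −3.79. The study lists 41 bases for this hairpin. Their middle 21 bases were taken as its target and are printed, all in capitals, because they place the hairpin on the transcript.
shOSGEP#1: CCAACATGACGCCACAATAAA
On the coding transcript of 3388 bases in GENCODE (mouse build GRCm38), these bases occupy positions 1257 to 1277, in the 3′ UTR, since the coding sequence runs from 116 to 1123. They are also in the 3′ UTR of a coding transcript of 1219 bases, at positions 1180 to 1200, after a coding sequence from 282 to 1046.

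Of the 8 genes for KEOPS and the synthesis of its modification, Osgep and Tprkb fell and none rose. Tprkb, which encodes a KEOPS subunit, had a CPM of 117, 107 and 111 in shCtr and 46.9, 50.3 and 53.9 in shOSGEP#1 (log2 fold change −1.17, standard error 0.126, edgeR adjusted p = 0.000479). Its values were close together within each group and far apart between them. Over the 8 genes the median log2 fold change was −0.65, and 7 of the 8 were negative, with both calls kept in every fit that left out 1 library. For Ddx58, the gene of RIG-I, CPM was 180, 184 and 278 in shCtr and 232, 216 and 327 in shOSGEP#1. These counts may include reads of the tagged construct, which was not tested. The groups overlapped, and the gene did not pass the test (log2 fold change 0.25, edgeR adjusted p = 0.434). Its log2 fold change was 0.04 without shOSGEP#1 replicate 3 and 0.49 without shCtr replicate 3 (edgeR adjusted p = 0.893 and 0.115).

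Many mRNAs recovered with RIG-I changed, in both directions. At an edgeR adjusted p under 0.01, 1495 of 12274 genes tested changed (12.2%). Of these, 744 rose (6.06%) and 751 fell (6.12%). Genes for cell adhesion, matrix and lysosomes were among those that rose, while pigment genes, glycolytic enzymes and ferritins were among those that fell. Called genes that rose had a median log2 fold change of 1.09 and those that fell of −1.07, against −0.01 over all genes tested (quartiles −0.39 and 0.37). At least a doubling or a halving was seen in 438 of the genes that rose and 432 of those that fell. None of the 1495 genes had overlapping groups. Over all genes tested, 2890 had all 3 shOSGEP#1 libraries above the shCtr libraries and 2789 had all 3 below. The genes that rose took 4.07%, 3.98% and 4.27% of the counts in shCtr and 7.71%, 9.15% and 9.64% in shOSGEP#1. Those that fell took 10.3%, 10.4% and 9.89% in shCtr and 5.41%, 4.91% and 4.39% in shOSGEP#1. The genes were chosen by this difference, so these shares describe it and do not test it.

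The number of genes called, and its balance of rises and falls, moved with single libraries. It was 422 without shCtr replicate 1 (171 up, 251 down), 367 without shCtr replicate 2 (144 up, 223 down), 488 without shOSGEP#1 replicate 2 (233 up, 255 down) and 1379 without shOSGEP#1 replicate 1 (803 up, 576 down). Scaled to library totals without TMM, 822 rose and 692 fell. Without shOSGEP#1 replicate 3, the library with the high mitochondrial share, it was 1430. All 1495 genes kept their direction in each of the 6 fits with 1 library left out. Since none had overlapping groups, this was largely given in advance. In each of these fits, 312 were called. Of the 185 genes picked for naming that passed, 75 were called in each of these fits. For the other 110, the edgeR adjusted p reached at most 0.0564 in a fit that left out 1 library. With all 9 libraries of the series in the fit, 0 genes were called by edgeR, and 620 had an unadjusted p under 0.05. Leaving out only shOSGEP#2 replicate 2 gave 1232 calls, of which 1202 were among the 1495, and a common dispersion of 0.0692 in place of 0.420.

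**Figure D1:**
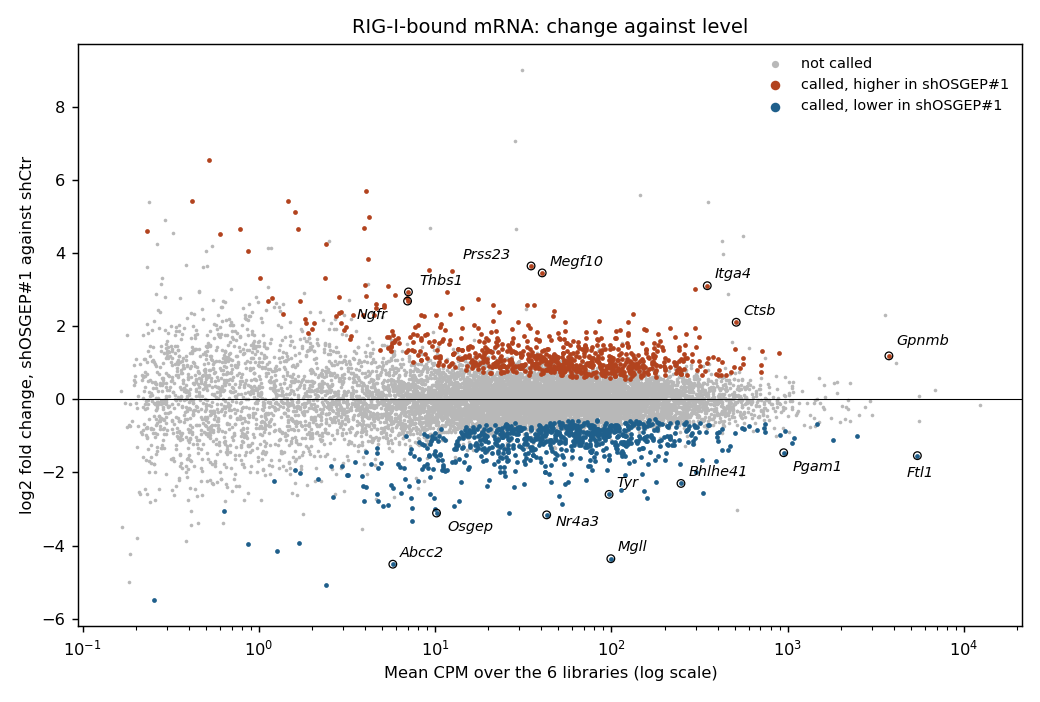
Each point is 1 of the genes tested, with its mean CPM over the 6 libraries on a log axis and its log2 fold change in shOSGEP#1 against shCtr on the vertical axis. Colours mark genes called higher or lower at an edgeR adjusted p under 0.01, circles mark the genes labelled, and 3 genes with no count in shOSGEP#1 are not drawn; called genes lie at many levels, among them Thbs1 (log2 fold change 2.94) and Ftl1 (−1.54).

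The largest rises, among called genes with a mean of at least 1 CPM, were mostly in genes with low counts in shCtr. Fcna, a lectin that can start the complement cascade, had a CPM of 0.521, 0.168 and 0.0718 in shCtr and 7.5, 9.86 and 7.20 in shOSGEP#1 (log2 fold change 5.00, edgeR adjusted p = 0.000514). Btbd16 went from 0.347, 0.230 and 0.287 CPM to 4.83, 7.21 and 10.7 CPM (log2 fold change 4.69, edgeR adjusted p = 0.000274). The log2 fold change of Fcna was 6.02 without shCtr replicate 1. For both genes the shOSGEP#1 libraries were all above 4 CPM and the shCtr libraries all below 1 CPM. Lgi4, a secreted protein that Schwann cells need to form myelin, had a CPM of 1.74, 2.35 and 1.89 in shCtr and 20.5, 27.1 and 21.5 in shOSGEP#1 (log2 fold change 3.51, standard error 0.216, edgeR adjusted p = 0.000117), with little spread in either group. Megf10, a receptor for engulfment of cell debris, had a CPM of 5.36, 6.03 and 8.52 in shCtr and 56.1, 86.6 and 80.2 in shOSGEP#1 (log2 fold change 3.46, edgeR adjusted p = 0.000125). Prss23, a serine protease, had a log2 fold change of 3.65 (edgeR adjusted p = 0.000267). Hkdc1, of the hexokinase family, had a CPM of 0.174, 0.544 and 0.550 in shCtr and 4.11, 4.56 and 4.33 in shOSGEP#1 (log2 fold change 3.32, edgeR adjusted p = 0.00150). The shOSGEP#1 values of Hkdc1 lay within 1 CPM of each other. These 6 genes were called in every fit that left out 1 library.

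The 15 largest rises also held Pmepa1, Rgn, Afap1l2, Ncf4, Fsd2, Gm45140, Adam12 and Pmp2. Pmp2, a lipid-binding protein of peripheral myelin, had a CPM of 0.521, 0.482 and 1.41 in shCtr and 5.73, 7.15 and 8.70 in shOSGEP#1 and missed the threshold without shCtr replicate 1 (edgeR adjusted p = 0.0116). Pmepa1, a membrane protein that dampens TGF-β signalling, had a CPM of 0.198, 0 and 0 in shCtr and 2.55, 1.41 and 4.66 in shOSGEP#1. Both genes had non-overlapping groups, and the shCtr values of Pmepa1 rest on 8 counts in replicate 1 and none in the others. Pmepa1 was not called without shCtr replicate 2 or 3 or shOSGEP#1 replicate 1, 2 or 3 (edgeR adjusted p = 0.0257, 0.0178, 0.0105, 0.0126 and 0.0130). Rgn, a calcium-binding protein, was not called without shCtr replicate 2 or shOSGEP#1 replicate 2 (edgeR adjusted p = 0.0152 and 0.0104). Afap1l2, an adaptor of Src kinases, was not called without shCtr replicate 1 or 2 (edgeR adjusted p = 0.0132 and 0.0101). Ncf4, a subunit of the phagocyte NADPH oxidase, was not called without shCtr replicate 1 or 2 or shOSGEP#1 replicate 2 or 3 (edgeR adjusted p = 0.0186, 0.0337, 0.0172 and 0.0144). Fsd2 lost its call without shCtr replicate 1 or 2 (edgeR adjusted p = 0.0134 and 0.0148), and the predicted gene Gm45140 without shCtr replicate 1 or 2 (edgeR adjusted p = 0.0119 and 0.0112). The metalloprotease Adam12 lost its call without shCtr replicate 1, 2 or 3 or shOSGEP#1 replicate 2 (edgeR adjusted p = 0.0214, 0.0277, 0.0124 and 0.0258).

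Among the largest falls, under the same condition, 1 gene had no counts at all in shOSGEP#1. The gene ENSMUSG00000121570, which has no name in the annotation used, had 6.57, 8.04 and 15.3 CPM in shCtr and 0 in all 3 shOSGEP#1 libraries, at least 122-fold lower (against a floor of 3 counts per library; edgeR adjusted p = 0.000300). Mgll, the lipase that splits monoacylglycerols, had a CPM of 161, 176 and 230 in shCtr and 14, 3.44 and 10.8 in shOSGEP#1, a 20.6-fold reduction (log2 fold change −4.36, standard error 0.443, edgeR adjusted p = 0.000385). The shOSGEP#1 libraries differed among themselves, with replicate 2 lowest, and all lay more than 100 CPM below shCtr. Reep6, a protein that shapes the endoplasmic reticulum, had a CPM of 15.9, 14.5 and 10.1 in shCtr and 1.82, 1.59 and 0.652 in shOSGEP#1 (log2 fold change −3.32, edgeR adjusted p = 0.000499). Nr4a3, an orphan nuclear receptor, had a CPM of 42.8, 48.8 and 139 in shCtr and 9.64, 8.64 and 8.11 in shOSGEP#1 (log2 fold change −3.16, edgeR adjusted p = 0.00117). Its shCtr replicate 3 was far above the other shCtr libraries, and the log2 fold change was −2.40 without it. Wipf3, which binds actin regulators of the WASP family, fell with a log2 fold change of −3.00. Stx3, a syntaxin of membrane fusion, had a CPM of 11.8, 14.2 and 13.5 in shCtr and 2.23, 1.04 and 1.89 in shOSGEP#1 (log2 fold change −2.97, edgeR adjusted p = 0.000418). Mogat2, an enzyme that adds fatty acids to monoacylglycerols, had a CPM of 10.4, 10.5 and 7.58 in shCtr and 1.91, 0.896 and 1.08 in shOSGEP#1 (log2 fold change −2.90, edgeR adjusted p = 0.000632). Both genes lay above 7 CPM in every shCtr library and below 3 CPM in every shOSGEP#1 library. Ntrk3, the receptor of a neurotrophin, had a log2 fold change of −2.91, and 2310057J18Rik, a gene without a given name, had −2.91. All of these falls were called in every fit that left out 1 library.

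Abcc2, a transporter that exports organic anions, had a CPM of 10.3, 10.0 and 12.8 in shCtr and 1.19, 0.239 and 0.0652 in shOSGEP#1 (log2 fold change −4.51, standard error 0.676, edgeR adjusted p = 0.00181). The shOSGEP#1 libraries all lay below 2 CPM, the log2 fold change was −6.04 without shOSGEP#1 replicate 1, and the gene missed the threshold without shCtr replicate 1 or shOSGEP#1 replicate 2 (edgeR adjusted p = 0.0115 and 0.0104). Map1a, a protein of microtubules, had a CPM of 73.0, 55.7 and 11.4 in shCtr and 6.16, 4.30 and 5.99 in shOSGEP#1. Its level in shCtr replicate 3 was nearer to shOSGEP#1 than to the other shCtr libraries, and it was not called without shCtr replicate 1 or 2 or shOSGEP#1 replicate 2 (edgeR adjusted p = 0.0183, 0.0157 and 0.0203). Hspb8, a small heat shock protein, and AA467197 fell from under 5 CPM to under 1 CPM. Hspb8 lost its call without shCtr replicate 1 or 2 or shOSGEP#1 replicate 2 (edgeR adjusted p = 0.0366, 0.0269 and 0.0191). AA467197 lost it without shCtr replicate 1, 2 or 3 or shOSGEP#1 replicate 2 (edgeR adjusted p = 0.0160, 0.0143, 0.0127 and 0.0167). Gm14434, from a family of zinc finger genes with near-identical copies that share reads, is uncertain. Its CPM was 7.29, 4.21 and 2.58 in shCtr and 0, 0.358 and 0 in shOSGEP#1, and it lost its call without shCtr replicate 1 or 2 (edgeR adjusted p = 0.0349 and 0.0214).

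Among the called genes, Gpnmb, a glycoprotein of melanosomes and lysosomes, had the largest rise in CPM, which is not scaled to transcript length. It had a CPM of 2543, 2027 and 2229 in shCtr and 4170, 5997 and 5546 in shOSGEP#1 (log2 fold change 1.19, standard error 0.167, edgeR adjusted p = 0.00137). Each shOSGEP#1 library held at least 1600 CPM more than any shCtr library, and the gene was not called without shCtr replicate 2 (edgeR adjusted p = 0.0115). Ctsb, the lysosomal protease cathepsin B, had a CPM of 219, 176 and 175 in shCtr and 561, 918 and 1015 in shOSGEP#1 (log2 fold change 2.11, edgeR adjusted p = 0.000479). Tacc1, a protein that binds microtubule ends, had a CPM of 360, 364 and 481 in shCtr and 962, 1038 and 1089 in shOSGEP#1 (log2 fold change 1.33, edgeR adjusted p = 0.000748). Ctsb was more spread in shOSGEP#1 than Tacc1, and both genes were called in every fit that left out 1 library. Syt4, a synaptotagmin of vesicle release, had a CPM of 532, 525 and 496 in shCtr and 745, 1180 and 1851 in shOSGEP#1 (log2 fold change 1.26, edgeR adjusted p = 0.00963), with replicate 3 highest, and was not called without shCtr replicate 1, 2 or 3 or shOSGEP#1 replicate 2 (edgeR adjusted p = 0.0412, 0.0427, 0.0336 and 0.0262). The largest fall in CPM among called genes was in Ftl1, the ferritin light chain, with a CPM of 8943, 8283 and 6953 in shCtr and 3481, 3042 and 1952 in shOSGEP#1 (log2 fold change −1.54, standard error 0.206, edgeR adjusted p = 0.00114). Ftl1 has processed copies in the genome that share its reads, so its value is uncertain. Pgam1, a phosphoglycerate mutase of glycolysis, had a CPM of 1284, 1467 and 1406 in shCtr and 603, 494 and 441 in shOSGEP#1 (log2 fold change −1.46, edgeR adjusted p = 0.000479). Gstp1, a glutathione transferase that shares reads with its close copy Gstp2, fell from 2127, 2588 and 2640 CPM to 1222, 1076 and 1155 CPM (log2 fold change −1.11, edgeR adjusted p = 0.00101). Aldoa, an aldolase of glycolysis, and Fth1, the ferritin heavy chain, fell as well, and both have copies that share reads, so their values are uncertain. Fth1 was not called without shCtr replicate 1 or 2 or shOSGEP#1 replicate 2 or 3 (edgeR adjusted p = 0.0328, 0.0299, 0.0291 and 0.0119). Aldoa was not called without shCtr replicate 1 or 2 or shOSGEP#1 replicate 1, 2 or 3 (edgeR adjusted p = 0.0329, 0.0330, 0.0103, 0.0281 and 0.0150).

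Gene lists were read by their members called, against 12.2% of all genes tested, and by their median, against −0.01. The 44 lists hold 1378 genes, of which 1213 were tested, 104 rose and 87 fell, so that 1304 of the called genes are in none of them. When 1 library is left out, list counts move with the number of all genes called, and their lowest and highest values are given with the libraries left out. The medians of 26 lists then changed sign or moved by more than 1.5 times, and some are given without shOSGEP#1 replicate 3.

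**Figure D2:**
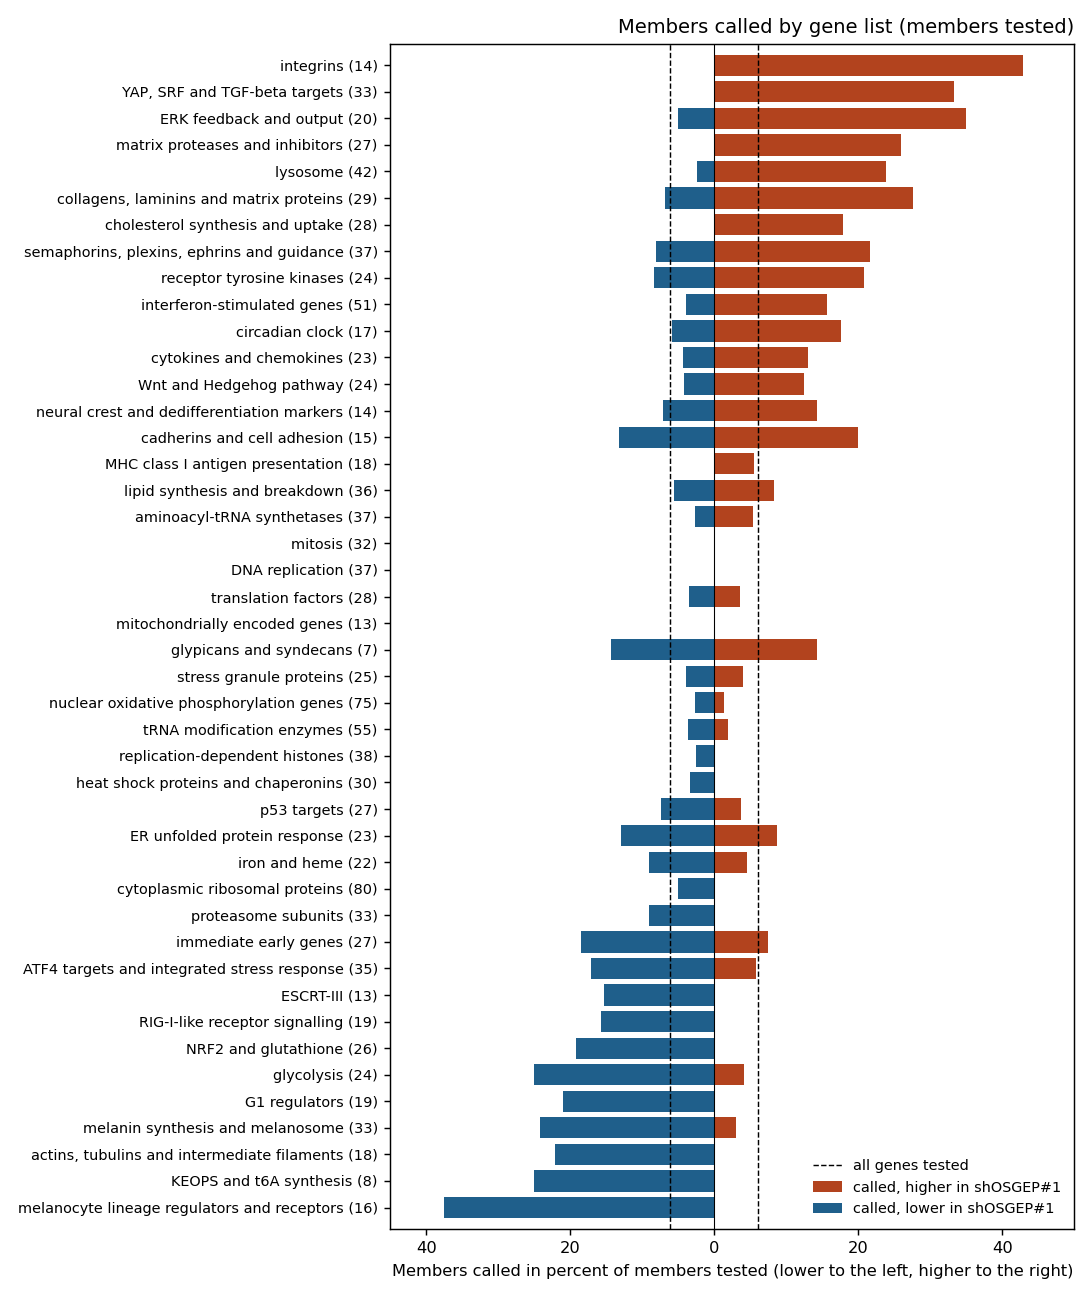
Bars give the members called in percent of the members tested of each gene list, higher in shOSGEP#1 to the right and lower to the left, with the number tested in parentheses. Dashed lines mark the shares over all genes tested (6.06% higher, 6.12% lower); integrins reached 42.9% higher and melanocyte lineage genes, with Cdk2, 37.5% lower.

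A few genes of RIG-I signalling fell, and more interferon targets rose than fell. Of the 19 genes tested for signalling by RIG-I-like receptors, none rose and 3 fell (15.8%). The median log2 fold change was −0.06 (−0.18 without shOSGEP#1 replicate 3 and 0.02 without shCtr replicate 3). With 1 library left out, counts ran from 1 (without shCtr replicate 1 or 2 or shOSGEP#1 replicate 2) to 3 (without shCtr replicate 3 or shOSGEP#1 replicate 3). Traf6, a ubiquitin ligase on the way to NF-κB, had a CPM of 118, 128 and 127 in shCtr and 66.0, 58.2 and 67.8 in shOSGEP#1 (log2 fold change −0.98, edgeR adjusted p = 0.00101). Rnf135, the ubiquitin ligase Riplet that acts on RIG-I, had a CPM of 37.1, 38.8 and 32.6 in shCtr and 19.4, 17.4 and 15.8 in shOSGEP#1 (log2 fold change −1.07, edgeR adjusted p = 0.00167). The 3 libraries of each group were close together for both genes. Rnf135 was not called without shCtr replicate 1 or 2 or shOSGEP#1 replicate 2 (edgeR adjusted p = 0.0112, 0.0125 and 0.0105), and the NF-κB subunit Rela, which also fell (−0.73), was not called without shCtr replicate 1 or 2 or shOSGEP#1 replicate 1 or 2 (edgeR adjusted p = 0.0301, 0.0333, 0.0150 and 0.0255). Of 51 interferon-stimulated genes, 8 rose and 2 fell (19.6%), and the median was 0.25, or 0.13 without shOSGEP#1 replicate 3. Cxcl10, a chemokine for T cells, had a CPM of 13, 17.4 and 17.1 in shCtr and 47.8, 61.2 and 123 in shOSGEP#1 (log2 fold change 2.27, standard error 0.328, edgeR adjusted p = 0.00156). Ifit1, which binds foreign RNA ends, had a CPM of 32.1, 37.1 and 40 in shCtr and 70.9, 78.8 and 124 in shOSGEP#1 (log2 fold change 1.30, edgeR adjusted p = 0.00276). In both genes replicate 3, with the high mitochondrial share, was the highest library, and the part of that share in these values was not tested. Cxcl10 was not called without shCtr replicate 1 (edgeR adjusted p = 0.0129) and Ifit1 without shCtr replicate 1 or 2 (edgeR adjusted p = 0.0183 and 0.0173). Xaf1 and Oasl2 also rose (1.10 and 1.54). Xaf1, a factor of cell death, was not called without shCtr replicate 1, 2 or 3 or shOSGEP#1 replicate 2 (edgeR adjusted p = 0.0172, 0.0282, 0.0119 and 0.0135). Oasl2, of the oligoadenylate synthetase family, was not called without shCtr replicate 1 or 2 or shOSGEP#1 replicate 2 (edgeR adjusted p = 0.0295, 0.0309 and 0.0135). Mx1, an antiviral GTPase, had a CPM of 4.17, 6.43 and 9.28 in shCtr and 2.55, 1.99 and 1.37 in shOSGEP#1 (log2 fold change −1.78, edgeR adjusted p = 0.00830). It fell, and was not called without shCtr replicate 1, 2 or 3 or shOSGEP#1 replicate 1, 2 or 3 (edgeR adjusted p = 0.0131, 0.0331, 0.0328, 0.0101, 0.0304 and 0.0162). The other member that fell, Parp12, an antiviral ADP-ribosyltransferase, had a log2 fold change of −0.90 and was not called without shCtr replicate 2 (edgeR adjusted p = 0.0105). The number of interferon-stimulated genes called ran from 1 (without shCtr replicate 1 or 2) to 9 (without shOSGEP#1 replicate 1).

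Of 18 genes for antigen presentation by MHC class I, only Erap1 was called, a peptidase that trims peptides for MHC molecules. Its CPM was 3.52, 4.21 and 4.74 in shCtr and 8.36, 12.6 and 11.1 in shOSGEP#1 (log2 fold change 1.34, edgeR adjusted p = 0.00411), and it was not called without shCtr replicate 1 or 2 or shOSGEP#1 replicate 2 (edgeR adjusted p = 0.0243, 0.0248 and 0.0223). The median of the list was 0.23, 13 of the 18 values were positive, and calls ran from 0 (without shCtr replicate 1 or 2 or shOSGEP#1 replicate 2) to 3 (without shOSGEP#1 replicate 1). Of 44 cytokines and chemokines, 23 were tested, 3 rose and 1 fell, with a median of 0.51. Lif, a cytokine of the interleukin-6 family, had a CPM of 9.67, 9.28 and 6.98 in shCtr and 19.6, 25.7 and 26.2 in shOSGEP#1 (log2 fold change 1.44, edgeR adjusted p = 0.00123). Pdgfa, a growth factor, rose with a log2 fold change of 1.62, and the matrix cytokine Spp1 (osteopontin) fell with −2.40. Lif, Pdgfa and Spp1 were called in every fit that left out 1 library, and the list counted 3 (without shCtr replicate 1) to 5 (without shOSGEP#1 replicate 1) calls.

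Stress response genes moved in both directions. Among 35 genes of the integrated stress response, 2 rose and 6 fell (22.9%), with a median of −0.14 and counts from 3 (without shCtr replicate 1 or 2) to 9 (without shCtr replicate 3). Sesn2, a sensor of leucine that restrains mTORC1, had a CPM of 160, 167 and 168 in shCtr and 70.3, 57.8 and 55.1 in shOSGEP#1 (log2 fold change −1.46, standard error 0.137, edgeR adjusted p = 0.000300). Psph, the last enzyme of serine synthesis, had a CPM of 96.3, 115 and 73.7 in shCtr and 28.0, 25.5 and 16.1 in shOSGEP#1 (log2 fold change −2.05, edgeR adjusted p = 0.000514). Chac1, which breaks down glutathione, had a CPM of 148, 176 and 115 in shCtr and 65.1, 68.9 and 55.0 in shOSGEP#1 (log2 fold change −1.24, edgeR adjusted p = 0.00123). These 3 targets of ATF4 were lower in each shOSGEP#1 library than in each shCtr library, and were called in every fit that left out 1 library. Ddit4, an inhibitor of mTORC1, fell (−1.13) and was not called without shCtr replicate 1 or 2 (edgeR adjusted p = 0.0110 and 0.0136). Eif2ak3, the kinase PERK, rose from 30.4, 27.6 and 29.8 CPM to 54.9, 64.4 and 85.5 CPM, and was not called without shCtr replicate 1 or 2 (edgeR adjusted p = 0.0120 and 0.0148). Of 23 genes of the unfolded protein response, 2 rose, 3 fell (21.7%), and the median was 0.11 (0.01 without shOSGEP#1 replicate 3). Ern1 encodes IRE1, the enzyme that splices the mRNA of the transcription factor Xbp1. The CPM of Ern1 was 39.3, 39.9 and 41.2 in shCtr and 59.8, 77.8 and 99.3 in shOSGEP#1 and that of Xbp1 was 128, 148 and 124 in shCtr and 81.9, 71.8 and 66.9 in shOSGEP#1. Neither had overlapping groups, and with 1 library left out the calls of this list ran from 0 (without shCtr replicate 1 or 2) to 6 (without shOSGEP#1 replicate 1). Ern1 was not called without shCtr replicate 1, 2 or 3 or shOSGEP#1 replicate 2 (edgeR adjusted p = 0.0285, 0.0309, 0.0162 and 0.0202), and Xbp1 was not called without shCtr replicate 1 or 2 or shOSGEP#1 replicate 2 (edgeR adjusted p = 0.0107, 0.0150 and 0.0132). Herpud1, which serves protein degradation at the endoplasmic reticulum, had a log2 fold change of 0.97 and was not called without shCtr replicate 1 or 2 or shOSGEP#1 replicate 2 (edgeR adjusted p = 0.0112, 0.0127 and 0.0132). Among 30 heat shock proteins and chaperonins, only Hspb8 was called (3.33%), with calls from 0 (without shCtr replicate 1 or 2 or shOSGEP#1 replicate 2) to 2 (without shCtr replicate 3 or shOSGEP#1 replicate 1). Among 25 stress granule proteins, Cpeb4 rose (0.73) and Atxn2l fell (−0.91), and calls ran from 0 (without shCtr replicate 1 or 2 or shOSGEP#1 replicate 2) to 2 (without shCtr replicate 3 or shOSGEP#1 replicate 3). Cpeb4, which regulates poly(A) tails, was not called without shCtr replicate 1 or 2 or shOSGEP#1 replicate 1 or 2 (edgeR adjusted p = 0.0316, 0.0453, 0.0105 and 0.0204), nor was Atxn2l without shCtr replicate 1 or 2 or shOSGEP#1 replicate 2 (edgeR adjusted p = 0.0180, 0.0192 and 0.0167).

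By edgeR, few genes of the translation apparatus were called. From the 15459 genes with at least 1 count that entered its fit, DESeq2 called 2812. Among them were 14 ribosomal protein genes, 2 translation factors, 3 aminoacyl-tRNA synthetases, 11 tRNA modification enzymes and 8 proteasome subunits. Of 80 cytoplasmic ribosomal protein genes, none rose and 4 fell (5.00%), below the 12.2% of all genes, 38 had an unadjusted p under 0.05, 74 of the 80 values were negative and the median was −0.38. These genes have many processed copies that share reads, so single values are uncertain. With 1 library left out, 0 (without shCtr replicate 1, 2 or 3 or shOSGEP#1 replicate 2) to 2 (without shOSGEP#1 replicate 1 or 3) were called. Of 28 translation factors, 1 rose and 1 fell (7.14%). Eif4ebp1, a repressor of cap-dependent translation and a target of ATF4, had a CPM of 360, 307 and 224 in shCtr and 77.3, 63.1 and 48.0 in shOSGEP#1 (log2 fold change −2.26, standard error 0.218, edgeR adjusted p = 0.000343). All shOSGEP#1 libraries lay below 80 CPM and all shCtr libraries far above, and the call stood in every fit that left out 1 library, while the list counted 1 (without shCtr replicate 1, 2 or 3 or shOSGEP#1 replicate 1 or 2) to 2 (without shOSGEP#1 replicate 3). Of 37 aminoacyl-tRNA synthetases, the mitochondrial Vars2 and Iars2 rose (0.83 and 0.57) and the cytoplasmic Dars fell. Dars, which charges aspartate, had a CPM of 154, 187 and 154 in shCtr and 64.9, 60.3 and 64.9 in shOSGEP#1 (log2 fold change −1.40, edgeR adjusted p = 0.000322). It was called in every fit that left out 1 library. Vars2 was not called without shCtr replicate 1, 2 or 3 or shOSGEP#1 replicate 1 or 2 (edgeR adjusted p = 0.0243, 0.0284, 0.0225, 0.0191 and 0.0306), and Iars2 was not called without shCtr replicate 1, 2 or 3 or shOSGEP#1 replicate 1, 2 or 3 (edgeR adjusted p = 0.0397, 0.0391, 0.0221, 0.0207, 0.0232 and 0.0106). This list counted 1 (without shCtr replicate 1, 2 or 3 or shOSGEP#1 replicate 2) to 2 (without shOSGEP#1 replicate 1 or 3). Of 55 enzymes that modify tRNA, 1 rose and 2 fell (5.45%). Trmt6, a subunit of the methyltransferase for adenosine in the T-loop of tRNA, had a CPM of 61.7, 64.1 and 56.7 in shCtr and 27.3, 25.7 and 31.4 in shOSGEP#1 (log2 fold change −1.14, edgeR adjusted p = 0.000933), and was called in every fit that left out 1 library, in which the list counted 1 (without shCtr replicate 1, 2 or 3 or shOSGEP#1 replicate 2) to 2 (without shOSGEP#1 replicate 1 or 3). Of 33 proteasome subunits, none rose and 3 fell (9.09%), 29 values were negative, the median was −0.37, and counts ran from 0 (without shCtr replicate 1 or 2 or shOSGEP#1 replicate 2) to 4 (without shCtr replicate 3).

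More pigment genes fell than rose, and others kept high counts. Of 33 melanin and melanosome genes, all tested, Gpnmb rose and 8 fell (24.2% against 6.12% of all genes), although the median was −0.03 and 15 of the 33 values were positive. Tyr, tyrosinase, the rate-limiting enzyme of melanin synthesis, had a CPM of 153, 153 and 193 in shCtr and 30.4, 26.1 and 27.3 in shOSGEP#1 (log2 fold change −2.60, standard error 0.154, edgeR adjusted p = 0.000117). Trpm1, a channel of melanocytes, had a CPM of 240, 258 and 323 in shCtr and 64.6, 35.8 and 27.5 in shOSGEP#1 (log2 fold change −2.71, edgeR adjusted p = 0.000486). Gpr143, a receptor on melanosomes, had a CPM of 17.3, 17 and 21.2 in shCtr and 8.19, 8.30 and 6.32 in shOSGEP#1 (log2 fold change −1.31, edgeR adjusted p = 0.00166). The shCtr and shOSGEP#1 libraries were far apart for Tyr and Trpm1 and nearer to each other for Gpr143. Slc24a5, an exchanger needed for melanosome maturation, fell with −0.97 and was not called without shCtr replicate 1 (edgeR adjusted p = 0.0125). Other pigment enzymes did not pass. Dct had 1438, 1242 and 1480 CPM in shCtr and 1621, 2060 and 1806 CPM in shOSGEP#1 (log2 fold change 0.38, edgeR adjusted p = 0.0823), and Tyrp1 did not pass either (edgeR adjusted p = 0.443). With 1 library left out, 4 (without shCtr replicate 2) to 11 (without shOSGEP#1 replicate 1) of the list were called.

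Of 16 regulators and receptors of the melanocyte lineage, none rose and 6 fell (37.5%), among them Cdk2, which is also in the list of G1 regulators, with a median of −0.46. S100b, a calcium-binding protein used as a melanoma marker, had a CPM of 160, 131 and 158 in shCtr and 43.5, 34.6 and 41.4 in shOSGEP#1 (log2 fold change −1.93, standard error 0.151, edgeR adjusted p = 0.000157). Met, the receptor of hepatocyte growth factor, had a CPM of 53.1, 56.9 and 90.3 in shCtr and 14.8, 15.9 and 20.5 in shOSGEP#1 (log2 fold change −1.99, edgeR adjusted p = 0.000658). Mc1r, the melanocortin receptor, had a CPM of 202, 187 and 253 in shCtr and 97.0, 105 and 59.6 in shOSGEP#1 (log2 fold change −1.32, edgeR adjusted p = 0.00255). All 3 genes were separated between the groups. Mc1r was not called without shCtr replicate 1 (edgeR adjusted p = 0.0135). Mitf, the master regulator of melanocytes, had 297, 357 and 784 CPM in shCtr and 401, 400 and 448 CPM in shOSGEP#1 and did not pass (edgeR adjusted p = 0.619). The count of this list ran from 4 (without shCtr replicate 1 or shOSGEP#1 replicate 2) to 6 (without shOSGEP#1 replicate 1 or 3). Of 14 tested markers of the neural crest and of dedifferentiated melanoma, Ngfr and Axl rose and Sox9 fell, with a median of 0.37. Ngfr, the low-affinity neurotrophin receptor, had a CPM of 1.49, 2.09 and 1.94 in shCtr and 9.87, 14.8 and 11.6 in shOSGEP#1 (log2 fold change 2.69, standard error 0.264, edgeR adjusted p = 0.000351). Sox9, a neural crest transcription factor, had a CPM of 30.3, 39.7 and 34.3 in shCtr and 9.81, 7.86 and 15.0 in shOSGEP#1 (log2 fold change −1.70, edgeR adjusted p = 0.00158). The separation was wide for Ngfr, whose lowest shOSGEP#1 library lay at more than 4 times its highest shCtr library. Both were called in every fit that left out 1 library, and the receptor kinase Axl was not without shCtr replicate 1, 2 or 3 or shOSGEP#1 replicate 1 or 2 (edgeR adjusted p = 0.0146, 0.0453, 0.0298, 0.0123 and 0.0417).

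**Figure D3:**
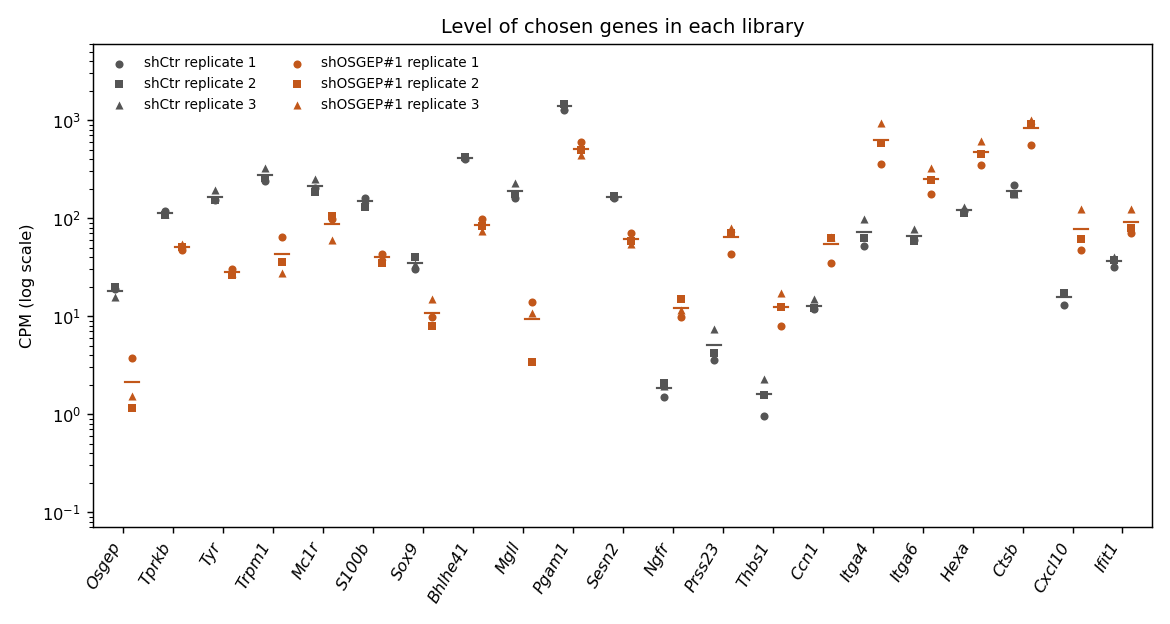
Each symbol is the CPM of a gene in 1 library on a log axis, grey for shCtr and orange for shOSGEP#1, with a symbol for each replicate and a short line at the mean of 3 libraries. The groups do not overlap for any gene drawn; Tyr lies between 26.1 and 30.4 CPM in shOSGEP#1 and between 153 and 193 CPM in shCtr.

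Promoters of the pigment genes and of the YAP and SRF targets that were called were searched in RefSeq sequences (build GRCm38.p6, 250 bases before to 50 after each start), matched by symbol or Entrez gene. Only 79.6% of the genes tested matched an entry, fewer than 80%, so a comparison of motif shares over all called genes is void. The M-box core CATGTG, a sequence that MITF can bind, was searched on both strands and is in 14.2% of all 32851 promoters and 8.47% of those of genes tested. Of the 9 called pigment genes, 7 had an entry, and the core was found in those of Tyr, Trpm1, Slc24a5 and Oca2. Oca2, a melanosome transporter, fell (−2.79) but was not called without shCtr replicate 1, 2 or 3 or shOSGEP#1 replicate 2 (edgeR adjusted p = 0.0155, 0.0135, 0.0109 and 0.0146). The TEAD core CATTCC is in 14.7% of all promoters and 12% of those of genes tested, and the CArG box of SRF in 1.63% and 1.26%. In the 10 promoters of the 9 called YAP and SRF targets with an entry, the TEAD core was found in 5 and the CArG box in 3. A match is a description of letters, not of binding. The promoters printed are those of the called members with the smallest adjusted p that held a match, read 5′ to 3′, with the match of the motif named in capitals. The Vcl promoter also holds a TEAD core, left in lower case. They are Tyr (chr7:87493463-87493762, minus strand, M-box core), Trpm1 (chr7:64153585-64153884, plus strand, M-box core), Ccn1 (chr3:145649936-145650235, minus strand, TEAD core) and Vcl (chr14:20929148-20929447, plus strand, CArG box).
Tyr: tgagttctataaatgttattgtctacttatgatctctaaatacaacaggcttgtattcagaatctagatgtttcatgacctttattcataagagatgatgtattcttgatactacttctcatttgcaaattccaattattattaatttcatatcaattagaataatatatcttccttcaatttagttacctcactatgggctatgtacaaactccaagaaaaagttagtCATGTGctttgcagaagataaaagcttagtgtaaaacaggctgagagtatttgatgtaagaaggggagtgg
Trpm1: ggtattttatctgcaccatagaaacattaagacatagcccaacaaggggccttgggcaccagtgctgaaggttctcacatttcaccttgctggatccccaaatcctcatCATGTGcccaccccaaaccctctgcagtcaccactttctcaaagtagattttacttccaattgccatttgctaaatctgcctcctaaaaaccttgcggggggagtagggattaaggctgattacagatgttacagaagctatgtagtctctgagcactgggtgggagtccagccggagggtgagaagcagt
Ccn1: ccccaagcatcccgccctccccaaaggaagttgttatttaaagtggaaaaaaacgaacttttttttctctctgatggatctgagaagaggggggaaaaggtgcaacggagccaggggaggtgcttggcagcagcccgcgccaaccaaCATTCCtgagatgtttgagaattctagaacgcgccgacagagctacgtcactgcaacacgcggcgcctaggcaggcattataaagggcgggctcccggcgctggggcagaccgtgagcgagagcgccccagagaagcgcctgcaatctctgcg
Vcl: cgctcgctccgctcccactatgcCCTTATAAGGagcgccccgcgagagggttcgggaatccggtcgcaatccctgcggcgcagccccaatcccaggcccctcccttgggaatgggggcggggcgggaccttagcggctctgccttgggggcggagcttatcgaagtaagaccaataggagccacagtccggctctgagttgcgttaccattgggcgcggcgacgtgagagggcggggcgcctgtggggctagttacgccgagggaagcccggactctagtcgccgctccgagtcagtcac

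Integrins, matrix proteins, matrix proteases and the targets of YAP, SRF and TGF-β had more members that rose than fell. Of 33 tested targets of YAP, SRF and TGF-β, 11 rose and none fell (33.3%, against 6.06% of all genes), with a median of 0.49. Ccn1, a matrix protein induced by YAP, had a CPM of 11.7, 12 and 14.8 in shCtr and 34.8, 63.3 and 63.7 in shOSGEP#1 (log2 fold change 2.04, standard error 0.246, edgeR adjusted p = 0.000683). Thbs1, thrombospondin, had a CPM of 0.967, 1.55 and 2.27 in shCtr and 7.84, 12.3 and 17.2 in shOSGEP#1 (log2 fold change 2.94, edgeR adjusted p = 0.00111). Tpm4, a tropomyosin of actin filaments, had a CPM of 82.1, 81.0 and 66.5 in shCtr and 164, 205 and 133 in shOSGEP#1 (log2 fold change 1.10, edgeR adjusted p = 0.00195). Of these, Ccn1 and Thbs1 were called in every fit that left out 1 library. Tpm4 was not called without shCtr replicate 1 or 2 (edgeR adjusted p = 0.0123 and 0.0129), nor was the focal adhesion protein Vcl (0.92) without shCtr replicate 1 or 2 or shOSGEP#1 replicate 2 (edgeR adjusted p = 0.0155, 0.0203 and 0.0137). With 1 library left out, 2 (without shCtr replicate 1 or 2) to 11 (without shOSGEP#1 replicate 3) of these targets were called.

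Integrins, the receptors that hold cells to the matrix, had 6 of 14 tested members that rose (42.9%) and none that fell, with a median of 0.36 (0.21 without shOSGEP#1 replicate 2). Itga4, a partner in the receptor for VCAM and fibronectin, had a CPM of 52.1, 63.3 and 99.2 in shCtr and 360, 584 and 939 in shOSGEP#1 (log2 fold change 3.11, standard error 0.368, edgeR adjusted p = 0.000641). Itga6, a subunit of laminin receptors, had a CPM of 60.2, 57.9 and 77.1 in shCtr and 175, 244 and 326 in shOSGEP#1 (log2 fold change 1.91, edgeR adjusted p = 0.000684). In both genes replicate 1 was the lowest and replicate 3 the highest of the shOSGEP#1 libraries, and none reached down to shCtr. Itga9 and Itgb8 rose with 1.30 and 1.12. Itga9 was not called without shCtr replicate 1 or 2 (edgeR adjusted p = 0.0116 and 0.0129), and Itgb8 was not called without shCtr replicate 1, 2 or 3 or shOSGEP#1 replicate 2 (edgeR adjusted p = 0.0252, 0.0137, 0.0155 and 0.0230). The integrin count ran from 2 (without shCtr replicate 1 or 2) to 6 (without shOSGEP#1 replicate 1). Of 29 collagens, laminins and other matrix proteins, 8 rose and 2 fell (34.5%), with a median of 0.98 (0.74 without shOSGEP#1 replicate 3). Lamc1, a laminin chain of basement membranes, had a CPM of 52.8, 48.4 and 46.7 in shCtr and 103, 132 and 148 in shOSGEP#1 (log2 fold change 1.35, edgeR adjusted p = 0.000594). Hspg2, the basement membrane proteoglycan perlecan, had a CPM of 101, 89.8 and 108 in shCtr and 208, 259 and 208 in shOSGEP#1 (log2 fold change 1.16, edgeR adjusted p = 0.000842). Both had tight shCtr libraries and were called in every fit that left out 1 library. Fibronectin, Fn1, had a CPM of 46.4, 34.4 and 21.1 in shCtr and 89.4, 110 and 86.1 in shOSGEP#1 (log2 fold change 1.47, edgeR adjusted p = 0.00291) and was not called without shCtr replicate 2 or shOSGEP#1 replicate 2 (edgeR adjusted p = 0.0184 and 0.0164). The count of matrix proteins ran from 3 (without shCtr replicate 2) to 11 (without shOSGEP#1 replicate 1).

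Of 27 tested matrix proteases and inhibitors, 7 rose and none fell (25.9%), with a median of 0.72 (0.51 without shOSGEP#1 replicate 3). Prss23 had a CPM of 3.60, 4.25 and 7.37 in shCtr and 43.5, 71.4 and 79.7 in shOSGEP#1. Timp2, an inhibitor of metalloproteases, had a CPM of 55.8, 53.4 and 80.3 in shCtr and 222, 315 and 192 in shOSGEP#1 (log2 fold change 1.92, standard error 0.225, edgeR adjusted p = 0.000632). Adam9, a protease that sheds membrane proteins, had a CPM of 80.1, 81.2 and 88.8 in shCtr and 185, 235 and 175 in shOSGEP#1 (log2 fold change 1.22, edgeR adjusted p = 0.000658). Replicate 2 was the highest shOSGEP#1 library for Timp2 and Adam9, and all 3 genes kept their call in every fit that left out 1 library, in which 4 (without shCtr replicate 1 or 2 or shOSGEP#1 replicate 2) to 10 (without shOSGEP#1 replicate 1) of the list were called. Among glypicans and syndecans, Gpc4 rose (2.36) and Gpc1 fell (−1.08) of 7 tested, with a median of 0.87 and calls from 0 (without shCtr replicate 1 or 2) to 2 (without shOSGEP#1 replicate 1). These heparan sulphate proteoglycans lost their calls in several fits, Gpc4 without shCtr replicate 1 or 2 or shOSGEP#1 replicate 2 (edgeR adjusted p = 0.0147, 0.0103 and 0.0143) and Gpc1 without shCtr replicate 1, 2 or 3 or shOSGEP#1 replicate 1 or 3 (edgeR adjusted p = 0.0187, 0.0208, 0.0223, 0.0175 and 0.0107). Of 15 tested cadherins and adhesion molecules, 3 rose and 2 fell (33.3%), with a median of 0.84 (0.68 without shOSGEP#1 replicate 3). Nectin3, a partner of cadherins at junctions, had a CPM of 7.96, 9.78 and 10.3 in shCtr and 22.7, 30.3 and 31.9 in shOSGEP#1 (log2 fold change 1.57, edgeR adjusted p = 0.000817), with the call kept in every fit that left out 1 library. Mcam, an adhesion protein first known from melanoma, had a CPM of 113, 100 and 93.5 in shCtr and 182, 325 and 222 in shOSGEP#1, more spread in shOSGEP#1 than in shCtr, and was not called without shCtr replicate 1, 2 or 3 (edgeR adjusted p = 0.0143, 0.0188 and 0.0126). Icam1 and Gjb2 were the members that fell (−3.96 and −1.29), and Icam1 had −5.07 without shOSGEP#1 replicate 1. Icam1 was not called without shCtr replicate 1, 2 or 3 or shOSGEP#1 replicate 2 (edgeR adjusted p = 0.0529, 0.0438, 0.0184 and 0.0377). Gjb2 was not called without shCtr replicate 2 or shOSGEP#1 replicate 1 or 2 (edgeR adjusted p = 0.0121, 0.0104 and 0.0140). The list counted 1 (without shCtr replicate 2) to 7 (without shOSGEP#1 replicate 1) calls. Of 18 actins, tubulins and intermediate filament genes, none rose and 4 fell (22.2%), with a median of −0.33 (−0.16 without shOSGEP#1 replicate 3) and counts from 2 (without shCtr replicate 1 or 2 or shOSGEP#1 replicate 2) to 5 (without shOSGEP#1 replicate 3). Tuba4a, a tubulin, had a CPM of 26.7, 25.5 and 16.6 in shCtr and 6.34, 4.44 and 3.81 in shOSGEP#1 (log2 fold change −2.26, edgeR adjusted p = 0.000541) and was called in every fit that left out 1 library. Tuba1a and Tuba1c also fell (−0.97 and −0.89) but share reads with each other and are uncertain, and Tuba1c was not called without shCtr replicate 1 or 2 or shOSGEP#1 replicate 2 (edgeR adjusted p = 0.0198, 0.0227 and 0.0172).

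Signalling genes showed several changes in each direction. Of 20 tested genes of ERK feedback and output, 7 rose and 1 fell (40%), with a median of 0.64 and counts from 1 (without shCtr replicate 1 or 2 or shOSGEP#1 replicate 2) to 9 (without shOSGEP#1 replicate 3). Spry1, a feedback inhibitor of receptor kinases, had a CPM of 3.12, 3.12 and 2.27 in shCtr and 7.53, 9.0 and 8.89 in shOSGEP#1 (log2 fold change 1.55, edgeR adjusted p = 0.00227) and was not called without shCtr replicate 1 or 2 or shOSGEP#1 replicate 2 (edgeR adjusted p = 0.0128, 0.0135 and 0.0140). Of 24 receptor tyrosine kinases tested, 5 rose and 2 fell (29.2%), with a median of 0.48. The receptors of insulin-like growth factor and insulin, Igf1r and Insr, rose with 1.05 and 0.93. Igf1r was not called without shCtr replicate 1 or 2 or shOSGEP#1 replicate 2 (edgeR adjusted p = 0.0133, 0.0196 and 0.0144), and Insr was not called without shCtr replicate 1, 2 or 3 or shOSGEP#1 replicate 2 (edgeR adjusted p = 0.0197, 0.0294, 0.0197 and 0.0216). The 2 receptors that fell, Met and Ntrk3, kept their calls, while the whole list counted 2 (without shCtr replicate 1 or 2 or shOSGEP#1 replicate 2) to 6 (without shOSGEP#1 replicate 3). Of 27 immediate early genes, 2 rose and 5 fell (25.9%), with a median of −0.07 (−0.17 without shOSGEP#1 replicate 3). The median turned positive without shCtr replicate 3 (0.02), shOSGEP#1 replicate 1 (0.04) or shOSGEP#1 replicate 2 (0.00104). Counts ran from 1 (without shCtr replicate 2 or shOSGEP#1 replicate 2) to 7 (without shOSGEP#1 replicate 3). Egr1, a zinc finger factor, had a CPM of 0.793, 0.628 and 0.670 in shCtr and 3.36, 3.21 and 2.44 in shOSGEP#1 (log2 fold change 2.08, edgeR adjusted p = 0.00465) and was not called without shCtr replicate 1, 2 or 3 or shOSGEP#1 replicate 1 or 2 (edgeR adjusted p = 0.0220, 0.0323, 0.0150, 0.0157 and 0.0227).

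Boc, a coreceptor of Hedgehog, had a CPM of 10.9, 12.1 and 12 in shCtr and 27.2, 37.6 and 35.1 in shOSGEP#1 (log2 fold change 1.49, standard error 0.175, edgeR adjusted p = 0.000634). Axin2, a negative regulator and target of Wnt signalling, had a CPM of 15.4, 12.8 and 15.2 in shCtr and 5.79, 5.10 and 4.82 in shOSGEP#1 (log2 fold change −1.49, edgeR adjusted p = 0.00104). The groups were far apart for both, and both were called in every fit that left out 1 library. Of the 24 Wnt and Hedgehog genes tested, 3 rose and 1 fell (16.7%), with a median of 0.24 (0.12 without shOSGEP#1 replicate 3). Counts of this list ran from 2 (without shCtr replicate 1 or 2) to 6 (without shOSGEP#1 replicate 3). Among 37 semaphorins, plexins, ephrins and other guidance genes, 8 rose and 3 fell (29.7%), with a median of 0.55. Plxnc1, a semaphorin receptor of melanocytes, had a CPM of 116, 145 and 127 in shCtr and 56.0, 48.1 and 47.5 in shOSGEP#1 (log2 fold change −1.38, edgeR adjusted p = 0.000385). Sema6d, a membrane semaphorin, had a CPM of 8.38, 7.25 and 13.6 in shCtr and 2.26, 2.15 and 1.08 in shOSGEP#1 (log2 fold change −2.43, edgeR adjusted p = 0.00182). Both were lower in every shOSGEP#1 library and kept their call in every fit that left out 1 library. Sema3c, a secreted semaphorin, had a CPM of 3.45, 3.79 and 5.33 in shCtr and 9.99, 20.3 and 20.7 in shOSGEP#1 and was not called without shCtr replicate 1 or 2 or shOSGEP#1 replicate 2 (edgeR adjusted p = 0.0157, 0.0150 and 0.0119). Guidance genes counted 2 (without shCtr replicate 1 or 2) to 10 (without shOSGEP#1 replicate 3) calls.

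Clock genes stood out by a repressor. Bhlhe41, which represses clock and E-box genes, had a CPM of 398, 417 and 417 in shCtr and 98.3, 83.6 and 73.2 in shOSGEP#1 (log2 fold change −2.30, standard error 0.151, edgeR adjusted p = 0.000117). The libraries of each group were close together and the groups far apart. Nr1d1, the nuclear receptor REV-ERBα, had a CPM of 10.8, 9.13 and 10.5 in shCtr and 27.0, 27.4 and 29.6 in shOSGEP#1 (log2 fold change 1.44, edgeR adjusted p = 0.000499). Dbp, an output factor of the clock, had a CPM of 5.88, 5.13 and 4.98 in shCtr and 18.1, 15.0 and 16.1 in shOSGEP#1 (log2 fold change 1.60, edgeR adjusted p = 0.000622). Both lay higher in each shOSGEP#1 library, with little spread, and Bhlhe41, Nr1d1 and Dbp were called in every fit that left out 1 library. Clock rose with 0.73 but was not called without shCtr replicate 1, 2 or 3 or shOSGEP#1 replicate 2 (edgeR adjusted p = 0.0157, 0.0231, 0.0119 and 0.0191). Of the 17 clock genes tested, 3 rose and 1 fell (23.5%), with a median of 0.10 and counts from 3 (without shCtr replicate 1, 2 or 3 or shOSGEP#1 replicate 2) to 6 (without shOSGEP#1 replicate 3).

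G1 regulators fell in part, while replication, mitosis and histone genes had few calls by edgeR. Over all genes, DESeq2 called 2812 of the 15459 with at least 1 count that entered its fit. Of 19 G1 regulators, none rose and 4 fell (21.1%), with a median of −0.32 (−0.12 without shOSGEP#1 replicate 3) and counts from 0 (without shCtr replicate 2 or shOSGEP#1 replicate 2) to 3 (without shOSGEP#1 replicate 1 or 3). Cdk2, a kinase of S phase entry, had a CPM of 410, 506 and 743 in shCtr and 295, 262 and 209 in shOSGEP#1 (log2 fold change −1.14, edgeR adjusted p = 0.00649) and was not called without shCtr replicate 2 or 3 or shOSGEP#1 replicate 2 or 3 (edgeR adjusted p = 0.0229, 0.0148, 0.0261 and 0.0145). Of 37 DNA replication genes 0 were called by edgeR and 2 by DESeq2, with 5 at an unadjusted edgeR p under 0.05 and a median of −0.03 (0.11 without shOSGEP#1 replicate 3). Of 32 mitosis genes 0 were called by edgeR and 7 by DESeq2, with 13 at an unadjusted edgeR p under 0.05. Without shOSGEP#1 replicate 3, edgeR called 1 gene in each of these lists. The mitosis genes had a median of −0.51 with 27 of 32 values negative, of −0.28 without shCtr replicate 3 and of −0.24 without shOSGEP#1 replicate 3. Of 38 replication-dependent histone genes, which share reads among copies and are uncertain, 1 was called by edgeR and 0 in each fit that left out 1 library, and the median of −0.41 was −0.05 without that library. Of 27 p53 targets, Bbc3, the death factor PUMA, rose (1.08), 2 fell, and calls ran from 1 (without shCtr replicate 1 or 2) to 4 (without shOSGEP#1 replicate 1). Bbc3 was not called without shCtr replicate 1 or 2 (edgeR adjusted p = 0.0113 and 0.0127).

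Metabolic genes changed by pathway. Of 24 glycolysis genes, 1 rose and 6 fell (29.2%), with a median of −0.61 (−0.48 without shOSGEP#1 replicate 3) and 20 negative values. Pfkl, the liver form of phosphofructokinase, had a CPM of 228, 232 and 118 in shCtr and 64.0, 41.8 and 33.8 in shOSGEP#1 (log2 fold change −2.07, standard error 0.294, edgeR adjusted p = 0.00143). Hk2, a hexokinase, had a CPM of 124, 151 and 108 in shCtr and 85.5, 71.9 and 60.6 in shOSGEP#1 (log2 fold change −0.83, edgeR adjusted p = 0.00673). In both genes shCtr replicate 3 was the lowest shCtr library, and the groups did not overlap. Pfkl was not called without shCtr replicate 1 or shOSGEP#1 replicate 2 (edgeR adjusted p = 0.0104 and 0.0103), and Hk2 was not called without shCtr replicate 1 or 2 or shOSGEP#1 replicate 2 or 3 (edgeR adjusted p = 0.0282, 0.0388, 0.0303 and 0.0136). Pgam1 kept its call in every fit that left out 1 library, and the list counted 1 (without shCtr replicate 1 or shOSGEP#1 replicate 2) to 6 (without shCtr replicate 3). Of 26 NRF2 and glutathione genes, none rose and 5 fell (19.2%), 23 values were negative and the median was −0.90. Me1, a malic enzyme that makes NADPH, had a CPM of 287, 294 and 183 in shCtr and 124, 98.7 and 129 in shOSGEP#1 (log2 fold change −1.14, edgeR adjusted p = 0.00329) and was not called without shCtr replicate 1 or 2 or shOSGEP#1 replicate 2 (edgeR adjusted p = 0.0197, 0.0201 and 0.0187). Gstp1, Ftl1 and Fth1 are also in it. For this list, calls ran from 2 (without shCtr replicate 1 or 2 or shOSGEP#1 replicate 2) to 14 (without shCtr replicate 3). Of 22 iron and heme genes, the 2 ferritins fell and Cp, the ferroxidase ceruloplasmin, rose (1.09), with a median of −0.30 and calls from 1 (without shCtr replicate 1 or 2 or shOSGEP#1 replicate 2 or 3) to 4 (without shCtr replicate 3 or shOSGEP#1 replicate 1). Cp was not called without shCtr replicate 1, 2 or 3 or shOSGEP#1 replicate 2 or 3 (edgeR adjusted p = 0.0408, 0.0406, 0.0131, 0.0311 and 0.0149).

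Of 28 genes of cholesterol synthesis and uptake, 5 rose and none fell (17.9%). The median was 0.34 (0.53 without shOSGEP#1 replicate 3 and 0.17 without shOSGEP#1 replicate 2). Counts ran from 0 (without shCtr replicate 1 or 2 or shOSGEP#1 replicate 2) to 9 (without shOSGEP#1 replicate 3). Sqle, squalene epoxidase, had a CPM of 44.5, 49.0 and 55.7 in shCtr and 94.2, 127 and 88.8 in shOSGEP#1 (log2 fold change 1.03, edgeR adjusted p = 0.00250). Msmo1, a sterol oxidase, had a CPM of 32.7, 31.9 and 51.2 in shCtr and 70.2, 125 and 109 in shOSGEP#1 (log2 fold change 1.36, edgeR adjusted p = 0.00421). Both were higher in every shOSGEP#1 library, with replicate 2 highest. Sqle was not called without shCtr replicate 1 or 2 or shOSGEP#1 replicate 2 (edgeR adjusted p = 0.0175, 0.0188 and 0.0116), and Msmo1 was not called without shCtr replicate 1 or 2 or shOSGEP#1 replicate 2 (edgeR adjusted p = 0.0268, 0.0265 and 0.0191). Among 36 genes of lipid synthesis and breakdown, 3 rose and 2 fell (13.9%), with calls from 2 (without shCtr replicate 1) to 6 (without shOSGEP#1 replicate 1). Fabp5, a fatty acid-binding protein, had a mean CPM of 88.2 ± 21.8 in shCtr and 261 ± 50.4 in shOSGEP#1 (SD, n = 3) (log2 fold change 1.54, edgeR adjusted p = 0.00123), and was not called without shCtr replicate 1 (edgeR adjusted p = 0.0108). Pnpla2, the triglyceride lipase ATGL, had a CPM of 123, 117 and 117 in shCtr and 67.9, 61.8 and 63.4 in shOSGEP#1 (log2 fold change −0.91, edgeR adjusted p = 0.00104). It was called in every fit that left out 1 library, as was Mgll.

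Lysosomal genes rose in number. Of 42 tested, 10 rose and 1 fell (26.2%), 32 values were positive and the median was 0.57 (0.42 without shOSGEP#1 replicate 3), with counts from 5 (without shCtr replicate 2) to 17 (without shOSGEP#1 replicate 1). Hexa, a subunit of hexosaminidase, had a mean CPM of 121 ± 9.80 in shCtr and 472 ± 129 in shOSGEP#1 (SD, n = 3) (log2 fold change 1.95, standard error 0.205, edgeR adjusted p = 0.000448). Ppt1, which removes palmitate from proteins, had a CPM of 23, 22.8 and 25.6 in shCtr and 53.6, 81.7 and 97.2 in shOSGEP#1 (log2 fold change 1.68, edgeR adjusted p = 0.000892). Naglu, an enzyme of heparan sulphate breakdown, had a CPM of 70.0, 64.3 and 50.6 in shCtr and 139, 218 and 187 in shOSGEP#1 (log2 fold change 1.54, edgeR adjusted p = 0.000730). Replicate 1 was the lowest shOSGEP#1 library for all 3 genes and was higher than every shCtr library. Atp6v0a1, a subunit of the proton pump, fell, with a CPM of 212, 213 and 237 in shCtr and 103, 125 and 116 in shOSGEP#1 (log2 fold change −0.97, edgeR adjusted p = 0.00125). Hexa, Ppt1, Naglu, Ctsb and Atp6v0a1 were called in every fit that left out 1 library. Of 13 ESCRT-III genes, Chmp7 and Chmp1a fell, with a median of −0.08 (−0.22 without shOSGEP#1 replicate 3) and calls from 1 (without shCtr replicate 2 or 3 or shOSGEP#1 replicate 1, 2 or 3) to 2 (without shCtr replicate 1). Chmp7, which recruits ESCRT-III to the nuclear envelope, had a CPM of 120, 136 and 93.9 in shCtr and 32.2, 22.7 and 21.8 in shOSGEP#1 (log2 fold change −2.21, edgeR adjusted p = 0.000259). It was called in every fit that left out 1 library, whereas Chmp1a was not called without shCtr replicate 2 or 3 or shOSGEP#1 replicate 1, 2 or 3 (edgeR adjusted p = 0.0342, 0.0213, 0.0117, 0.0206 and 0.0111).

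Of 75 nuclear genes of oxidative phosphorylation, Sdha rose, Uqcrb and Sdhc fell (4.00%), and calls ran from 1 (without shCtr replicate 2) to 3 (without shCtr replicate 3 or shOSGEP#1 replicate 1, 2 or 3). Uqcrb, a subunit of complex III, had a CPM of 65.6, 59.1 and 88.7 in shCtr and 16.5, 12.5 and 24.3 in shOSGEP#1 (log2 fold change −2.03, edgeR adjusted p = 0.000975), and was called in every fit that left out 1 library. Sdha and Sdhc, subunits of succinate dehydrogenase, moved in opposite directions (0.95 and −0.97). Sdha was not called without shCtr replicate 1 or 2 (edgeR adjusted p = 0.0120 and 0.0147), and Sdhc was not called without shCtr replicate 2 (edgeR adjusted p = 0.0143). Of the 13 mitochondrially encoded genes, 0 were called by edgeR and 1 by DESeq2, with 13 at an unadjusted edgeR p under 0.05. All 13 values were positive, with a median of 4.46. The median was 0.99 without shOSGEP#1 replicate 3. The number called was 8 without shOSGEP#1 replicate 1 and 1 without shOSGEP#1 replicate 3. The gene with most counts among them, mt-Co1, a subunit of cytochrome oxidase, had 1080, 797 and 1654 CPM in shCtr and 2008, 2525 and 13279 CPM in shOSGEP#1.

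The coding sequences of changed genes were compared by codons that the OSGEP modification serves, as a description without a test. The share of codons for isoleucine, methionine, threonine, asparagine and lysine, which all start with A, had a median of 21.2% in genes that rose (quartiles 18.7% and 23.9%) and 20.8% in genes that fell (17.4% and 23.7%). Over all genes tested it was 21.2% (17.9% and 24.1%). The quartile ranges of the 3 sets overlapped. All codons starting with A, which include some for serine and arginine, had medians of 26.7% in genes that rose, 26.2% in genes that fell and 26.9% over all genes tested. Coding sequences had a median of 560 codons in genes that rose and 418 in genes that fell, against 473 over all genes tested. Codon values come from the longest coding sequence of each gene in GENCODE and were available for at least 98.9% of each set.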

How the data were processed

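RNA that came down with tagged RIG-I was sequenced in 3 libraries of shCtr and 3 of shOSGEP#1. The authors deposited counts per gene as whole numbers, made with STAR and Salmon on GRCm39 and Ensembl 112. Groups and replicate numbers come from the sample labels. From these counts, CPM, genes detected and shares of counts were computed per library, with 95% Wilson intervals and a floor of 3 counts, which cover counting error only. Library measures were compared on the log2 scale by an exact permutation test, two-sided.

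Genes passing filterByExpr entered the quasi-likelihood test of edgeR 4.0.16 under R 4.3.3, with TMM normalization, on the 6 libraries and no covariate. A gene was called at a Benjamini-Hochberg adjusted p under 0.01, and the standard error is the fold change on the log2 scale over the square root of F. The tests were tested on simulated data, where edgeR recovered 198 of 200 changed genes with 2 false calls. Each changed gene was set at a log2 fold change of 2 in size, and all genes had a dispersion of 0.0484. Spread that differs between genes and a library that stands apart were not simulated. The simulation therefore checks the code and does not measure errors among the genes called here. Alternatives were DESeq2 1.42.0, RLE, library totals, other filters and thresholds, the replicate number as a block, 8 or 9 libraries in the fit, leaving out each library, and leaving out mitochondrially encoded genes.

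The genes named are Osgep and Ddx58, then called genes without overlap and with a mean CPM of at least 1: the 15 largest log2 fold changes in each direction, the 5 largest rises and falls in CPM, and up to 4 members of each list and direction with the smallest adjusted p. Markers of cell types are also named, and any other gene was chosen after its values were seen. This rule was written before the data were examined here, but list members and lists were chosen with earlier results of these data known. Names and coding sequences came from GENCODE M21 (GRCm38), which named all but 159 of 22396 identifiers. Tables were made in Python 3.11.15 with pandas 2.3.3, numpy 2.4.6 and scipy 1.17.1, and plots with matplotlib 3.10.9. Libraries of shOSGEP#2 and tRNA were left out of the comparison. Codons replaced the planned composition of RefSeq proteins, which were not used here.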

Additional observations from a re-analysis of the deposited data

How the results depend on the processing

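Of the 1495 genes called, 1494 were also called by DESeq2, which called 2812 (1481 up, 1331 down). At an adjusted p under 0.05 edgeR called 3475 (1751 up, 1724 down), and with a log2 fold change of at least 1 in size as well as an adjusted p under 0.01, 870 (438 up, 432 down). Both follow from the threshold. With all 9 libraries edgeR called 0 genes, up or down, with 620 at an unadjusted p under 0.05. Osgep kept its log2 fold change of −3.10 there and with 8 libraries, but missed the threshold (edgeR adjusted p = 0.811 and 0.0128). The cause was not tested. Under RLE, library totals, no filter, at least 10 counts in each library, 8 libraries (without shOSGEP#2 replicate 2) and the fit without mitochondrially encoded genes, which was chosen after seeing the data, 1232 to 1891 genes were called. With the replicate block, 1179 were called, and 1055 of the 1495 were among them. Apart from that fit, the deviations of log2 CPM from the group mean were correlated across genes between libraries of the 2 groups. For libraries of the same number the correlations were 0.00365, 0.0524 and 0.0787, and not every library correlated best with its own number.

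Leaving out 1 library gave 367 to 1430 genes called, 144 to 803 up and 223 to 709 down. The lowest counts were without shCtr replicate 2. The log2 fold change of Osgep then lay between −3.79 and −2.79 and passed each time. The difference in mean log2 share of the top 10 genes, 0.000838, turned to −0.09 without mitochondrially encoded genes in the total, and leaving out 1 library gave −0.08 to 0.07, negative without shCtr replicate 3 (−0.05) or shOSGEP#1 replicate 3 (−0.08). The cause was not tested.

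The median of 34 of 44 lists kept its sign, and no gene picked for naming changed sign under the 15 alternatives. All of these genes but Ddx58 were called and had groups without overlap, so a stable sign was largely given by their choice. Of these genes, those that missed the threshold numbered 39 with the replicate block, 31 with 8 libraries, 185 with all 9 libraries, 2 under RLE, and 1 each under DESeq2 and library totals.

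Depth and number limit what can be seen. Genes below 0.0977 CPM fall under the floor in the smallest library, and 3185 counted genes were too low to test. Since RNA of the whole lysate was not used, changes in amount and in recovery with RIG-I cannot be told apart. Counts on genes with near-identical copies are uncertain. Whether the counts of Ddx58 include reads of the tagged construct was not tested. A single shRNA was compared, so effects of OSGEP loss and other effects of this hairpin cannot be told apart.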

Other observations

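Some genes outside the lists had large changes and were chosen after their values were seen, so they illustrate the comparison and were not picked by a rule. Each of them was called by edgeR in all 6 fits that left out 1 library. Pmp22, a membrane protein of peripheral myelin, had a CPM of 3.94, 4.34 and 5.17 in shCtr and 19.7, 33.6 and 38.8 in shOSGEP#1 (log2 fold change 2.75, standard error 0.267, edgeR adjusted p = 0.000343). Gjc3, a connexin of myelinating cells, had a CPM of 86.4, 91.3 and 97.1 in shCtr and 234, 274 and 346 in shOSGEP#1 (log2 fold change 1.61, edgeR adjusted p = 0.000422). Both lay higher in every shOSGEP#1 library, with replicate 3 highest. Cspg4, a proteoglycan of melanoma cells, had a CPM of 7.41, 7.33 and 7.18 in shCtr and 39.5, 42.3 and 34.2 in shOSGEP#1 (log2 fold change 2.38, edgeR adjusted p = 0.000117). Jag1, a ligand of Notch receptors, rose (1.58), as did App, the amyloid precursor protein (1.28).

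Kcnj13, a potassium channel, had a CPM of 83.2, 84.8 and 107 in shCtr and 11, 11.2 and 16.2 in shOSGEP#1 (log2 fold change −2.87, standard error 0.204, edgeR adjusted p = 0.000125). Its lowest shCtr library lay far above its highest shOSGEP#1 library. Cited1, a transcriptional coregulator of melanocytes, fell (log2 fold change −1.78, edgeR adjusted p = 0.000374). Trib1, a pseudokinase that directs protein degradation, had a CPM of 46.4, 44.6 and 43.5 in shCtr and 11, 12.6 and 11.7 in shOSGEP#1 (log2 fold change −1.95, edgeR adjusted p = 0.000143), with tight values in each group. Epas1, the hypoxia factor HIF-2α, fell (−1.78). Nras, a GTPase that drives ERK signalling, had a CPM of 138, 165 and 166 in shCtr and 68.2, 65.7 and 42.6 in shOSGEP#1 (log2 fold change −1.44, edgeR adjusted p = 0.00101).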
